A study of Oryza sativa with 18 samples.

Results

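The 3 flag leaf libraries of the Ospho1;2-Ko1 mutant of rice (Oryza sativa), called Ko1 here, were compared with the 3 wild-type libraries at the stage labelled 15DAF. These 6 libraries were chosen by genotype and stage label and are 6 of 18 in the series, which also holds an OsPHO1;2-OE overexpression line and an earlier stage, 5DAF. All plants grew in a paddy field, and the leaves were taken while the grain was filling. Ko1 is 1 mutant line. The labels do not state its lesion, its parent cultivar or the kind of wild-type plant. They do not say whether the 3 libraries of a group came from separate plants, so p-values measure the spread between libraries. In the main fit this spread was estimated within the groups of all 18 libraries, not in these 6 alone.

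PHO1-type proteins carry phosphate out of cells, and OsPHO1;2 is known in rice for loading phosphate into the vascular stream and for moving it during grain filling. The flag leaf is the last leaf before the panicle and a main source of sugars, amino acids and minerals for the grain. Plants short of phosphate inside their cells switch on phosphatases, phosphate transporters and enzymes that replace phospholipids by galactolipids, and ribosomal RNA is a large pool of phosphorus in leaves.

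The 6 libraries held 13223554 to 18264909 counts each. Levels are given as CPM, counts scaled to TMM-adjusted library sizes, and differences as log2FC, the fitted log2 fold change of Ko1 over wild type with its standard error after ±. In all, 20437 of 55986 listed genes had enough counts to be tested. Wild-type libraries resembled each other (Pearson's r of log CPM 0.988 to 0.991) more than Ko1 libraries did (0.952 to 0.977), and Ko1 library 2 stood farthest from the others of its genotype. Summed over the chlorophyll a/b-binding, photosystem and Rubisco small-chain genes, the levels in Ko1 library 2 and 3 were 45687 and 20987 CPM, above and below the 29563 to 37689.7 CPM of the wild type, whereas Ko1 library 1 lay inside that range. Seed storage protein genes, markers of grain tissue, summed to 12.1 to 12.9 CPM in the wild type and 15.7 to 18.9 CPM in Ko1, and 25 of 43 were at 0 in all 6 libraries. Cell division genes summed to 532 to 601 CPM in the wild type and 563 to 631 CPM in Ko1. In the same order, genes described as pollen or anther genes summed to 257 to 292 CPM and 318 to 375 CPM, and wax genes of the epidermis to 135 to 145 CPM and 123 to 157 CPM. The part of these levels in the results below was not tested.

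OsPHO1;2 itself (LOC_Os02g56510, chromosome 2, 34609408 to 34615666, on a rice build that the labels and headers leave unnamed) had 1.78, 2.58 and 3.25 CPM in wild type and 6.10, 6.14 and 6.07 CPM in Ko1. The mutant libraries were nearly equal and lay above all 3 wild-type libraries, but the difference did not pass the test (log2FC 1.25 ± 0.51, adjusted p = 0.114). In a fit of these 6 libraries alone it did, with an adjusted p of 0.0267. In the overexpression libraries of the same stage the gene had 17.995, 4.75 and 29.5 CPM. The count is a sum over the whole gene, so it does not check for a small lesion in the coding sequence.

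A total of 2240 genes passed edgeR's quasi-likelihood test at an adjusted p under 0.05 (Benjamini-Hochberg over all 20437 tested genes), which is 11.0% of them. Of these, 1334 (6.53%) were higher in Ko1 and 906 (4.43%) were lower. The 2 directions differed in size and in the level of the genes. Called-higher genes had a median log2FC of 1.64 and a median wild-type level of 7.84 CPM, whereas called-lower genes had a median of -0.82 and a wild-type level of 50.2 CPM. All tested genes had a median log2FC of 0.01 and a median wild-type level of 14.6 CPM. At least 4-fold differences were found for 477 of the higher and 91 of the lower genes. In 2208 of the 2240 called genes the Ko1 and wild-type libraries did not overlap. A lack of overlap in a called gene named below therefore adds little to its call. The number of calls fell with any 1 library left out. Without wild-type library 1, 2 or 3, 815, 814 and 915 genes were called. Without Ko1 library 1, 2 or 3, the numbers were 1561, 2110 and 1369. Few calls were lost in 1 of these fits alone. They numbered 29, 37 and 32 for wild-type library 1, 2 or 3 and 0, 1 and 1 for Ko1 library 1, 2 or 3. Of the 2240 genes, 607 (419 higher and 188 lower) were called in the fit of all libraries and in each of the 6 fits without 1 library (2.97% of the tested genes), and genes of this kind are the ones named below unless the paragraph says otherwise. In bulk leaf RNA, fewer cells of a type and less RNA per cell cannot be told apart.

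**Figure D1:**
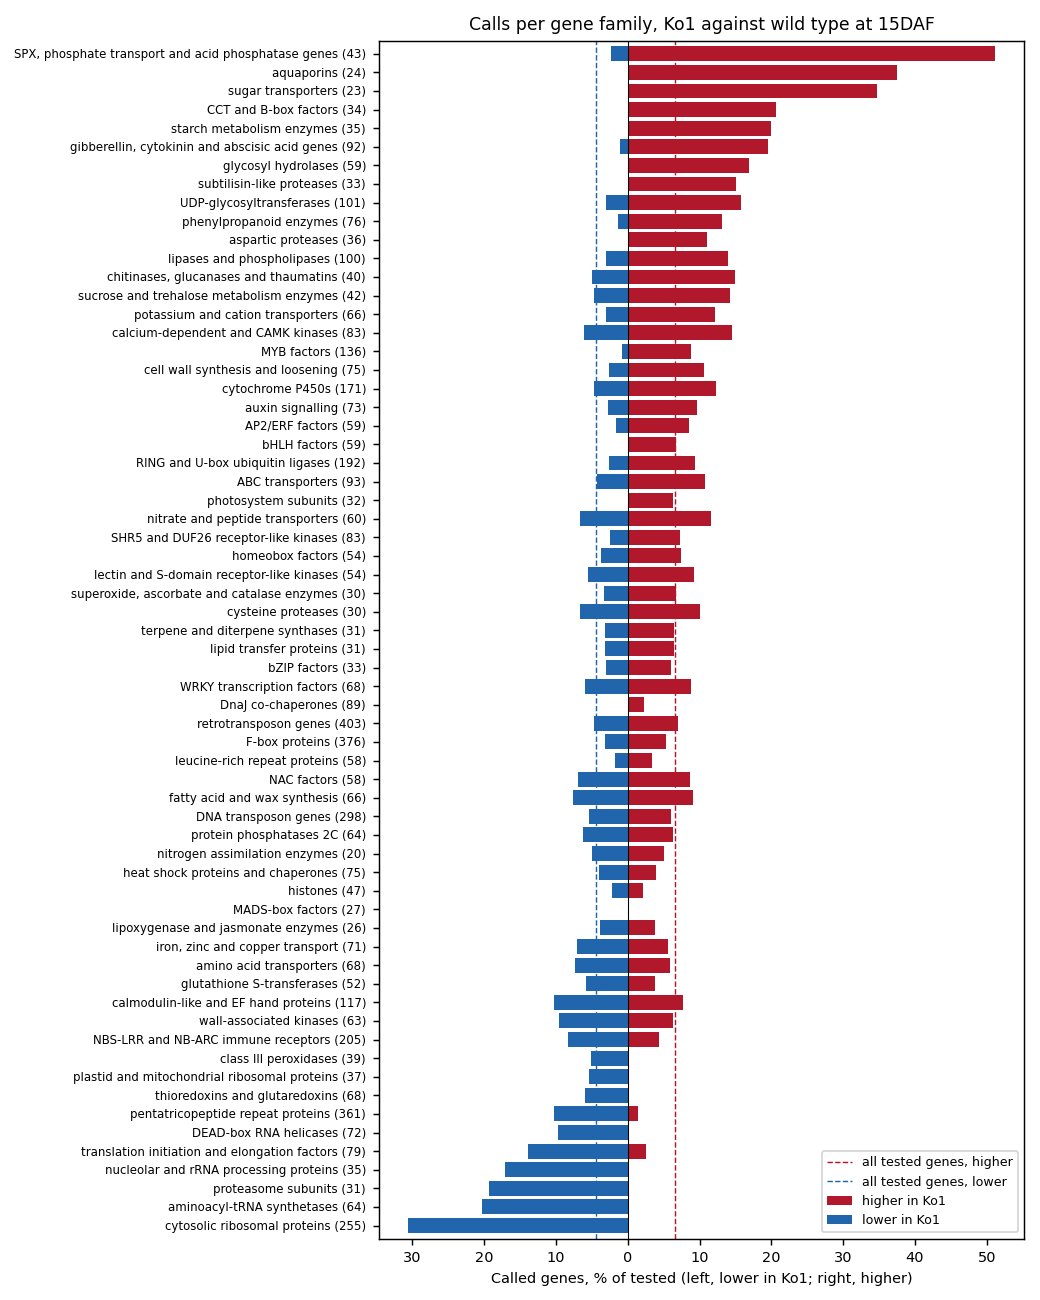
Share of tested genes called lower (left) and higher (right) in Ko1 for the 64 gene families with at least 20 tested members (number tested in parentheses); dashed lines mark the shares over all tested genes, 4.43% and 6.53%. Translation and proteasome families extend to the left, and phosphate, aquaporin and sugar transporter families to the right.

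Genes of the protein synthesis machinery made up the largest block of lower genes. Of 255 tested genes described as ribosomal proteins without an organelle in the description, 78 (30.6%) were lower, and the median log2FC over all 255 was -0.44, against 0.01 over all tested genes. The differences were small per gene and spread over the family: in 148 of the 255 genes every Ko1 library lay below every wild-type library, where 37.7% of all tested genes had groups that did not overlap in either direction. For 40S ribosomal protein S4, LOC_Os05g30530 had 47.3, 45.7 and 46.04 CPM in wild type and 25.2, 25.2 and 25.1 CPM in Ko1, with each genotype nearly constant (log2FC -0.88 ± 0.13, adjusted p = 0.000456). Together the ribosomal genes held 17595, 15796 and 18125 CPM in the wild type and 13441, 11609 and 12455 CPM in Ko1. The ribosomal count was 30, 50 and 28 without wild-type library 1, 2 or 3 and 63, 57 and 50 without Ko1 library 1, 2 or 3.

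The same direction was seen along the rest of the pathway. Of 64 aminoacyl-tRNA synthetase genes, which load amino acids onto their tRNAs, 13 (20.3%) were lower, with a median log2FC of -0.44. Glutaminyl-tRNA synthetase LOC_Os01g09000 had 256, 298 and 249.5 CPM in wild type and 111, 122 and 125 CPM in Ko1. The 3 Ko1 libraries were alike and far below every wild-type library (log2FC -1.17 ± 0.21, adjusted p = 0.00253). A gene with a class II tRNA synthetase core domain, LOC_Os08g42560, had 121, 121 and 121 CPM in wild type and 49.4, 78.2 and 51.2 CPM in Ko1, with Ko1 library 2 the nearest to the wild type (log2FC -1.02 ± 0.22, adjusted p = 0.00952). Among 79 initiation and elongation factor genes 11 (13.9%) were lower and 2 (2.53%) higher. Elongation factor 1-gamma LOC_Os02g12794, part of the complex that recharges the factor bringing tRNA to the ribosome, had 130.2 to 156 CPM in wild type and 82.8 to 88.4 CPM in Ko1 (log2FC -0.75 ± 0.14, adjusted p = 0.00296). Of 35 nucleolar and rRNA processing genes 6 (17.1%) were lower, against 4.43% of all tested genes. Of 72 DEAD-box RNA helicase genes, grouped by description whatever the RNA they act on, 7 (9.72%) were lower. Nucleolar GTP-binding protein 1 LOC_Os07g01920, known in yeast for the assembly of the large ribosomal subunit, had 55.7, 59.8 and 67.6 CPM in wild type and 34.7, 33.9 and 34.997 CPM in Ko1 (log2FC -0.82 ± 0.17, adjusted p = 0.00732). LOC_Os05g49130, a RimM domain gene of the kind that in bacteria serves maturation of the small subunit RNA, had 27.1 to 31.7 CPM in wild type and 11.5 to 13.2 CPM in Ko1 (log2FC -1.21 ± 0.21, adjusted p = 0.00223). The synthetase count was 4, 5 and 5 without wild-type library 1, 2 or 3 and 7, 13 and 6 without Ko1 library 1, 2 or 3. The factor count was 2, 6 and 2 without wild-type library 1, 2 or 3 and 5, 11 and 2 without Ko1 library 1, 2 or 3. The nucleolar count was 4, 4 and 3 without wild-type library 1, 2 or 3 and 5, 7 and 5 without Ko1 library 1, 2 or 3. The helicase count was 1, 1 and 1 without wild-type library 1, 2 or 3 and 2, 10 and 1 without Ko1 library 1, 2 or 3.

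Pentatricopeptide repeat proteins, which bind and process RNA in chloroplasts and mitochondria, leaned the same way. Of 361 tested genes 37 (10.2%) were lower and 5 were higher, with a median log2FC of -0.43 and a log2FC above 0 in 61. LOC_Os01g55960 had 1.64, 2.86 and 3.09 CPM in wild type and 0.252, 0.444 and 0.364 CPM in Ko1, a low level in both genotypes (log2FC -2.82 ± 0.46, adjusted p = 0.00129). LOC_Os01g71180, annotated PPR1106-17, went the other way with 5.91, 5.37 and 4.99 CPM in wild type and 19.9, 42.8 and 35.4 CPM in Ko1, and its lowest Ko1 library was still above the highest wild-type library (log2FC 2.59 ± 0.29, adjusted p = 4.59e-05). For organellar ribosomal proteins the share of lower genes was near that of all genes: 2 of 37 were lower (5.41%), with a median log2FC of -0.32. The pentatricopeptide count was 9, 13 and 6 without wild-type library 1, 2 or 3 and 12, 65 and 8 without Ko1 library 1, 2 or 3. The organellar count was 1, 1 and 0 without wild-type library 1, 2 or 3 and 2, 3 and 0 without Ko1 library 1, 2 or 3.

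Protein breakdown genes were called in both directions. Of 31 proteasome subunit genes 6 (19.4%) were lower, with a median log2FC of -0.27. The 26S regulatory subunit gene LOC_Os07g25420 had 84.7, 92.1 and 98.3 CPM in wild type and 57.8, 44.7 and 50.2 CPM in Ko1, without overlap (log2FC -0.85 ± 0.16, adjusted p = 0.00448). LOC_Os02g05340, with the repeat shared by proteasome and cyclosome subunits, had 145 to 160.02 CPM in wild type and 83.7 to 103 CPM in Ko1 (log2FC -0.69 ± 0.12, adjusted p = 0.00224). The proteasome count was 2, 2 and 2 without wild-type library 1, 2 or 3 and 2, 3 and 2 without Ko1 library 1, 2 or 3. Of 30 cysteine protease genes 3 (10%) were higher and 2 (6.67%) lower, and of 36 aspartic protease genes 4 (11.1%) were higher. Over all tested genes 6.53% were higher and 4.43% lower. The aspartic protease count was 0, 0 and 1 without wild-type library 1, 2 or 3 and 2, 2 and 3 without Ko1 library 1, 2 or 3. Of 192 RING and U-box ubiquitin ligase genes 18 (9.38%) were higher and 5 (2.60%) lower. The ligase count of higher genes was 8, 5 and 6 without wild-type library 1, 2 or 3 and 16, 14 and 12 without Ko1 library 1, 2 or 3. The papain-type oryzain alpha chain gene LOC_Os04g55650 was one of the most abundant lower transcripts, with 1627, 1828 and 1984 CPM in wild type and 807, 737 and 786 CPM in Ko1. All 3 mutant libraries were close to each other and lay far below the wild type (log2FC -1.22 ± 0.22, adjusted p = 0.00252). The vacuolar processing enzyme gene LOC_Os01g37910, a legumain-type protease that matures vacuolar proteins, had 823, 855 and 1106 CPM in wild type and 539, 362 and 360.4 CPM in Ko1 (log2FC -1.14 ± 0.21, adjusted p = 0.00352). The prolyl oligopeptidase gene OsPOP9 (LOC_Os04g47360) had 1753, 1978 and 1193 CPM in wild type and 321, 508 and 226 CPM in Ko1, with the lowest level in Ko1 library 3 (log2FC -2.22 ± 0.42, adjusted p = 0.00378). Subtilisin-like proteases went up where they were called: 5 of 33 (15.2%) were higher, with a median log2FC of 0.79. OsSub34 (LOC_Os04g03050) had 0.488 to 1.02 CPM in wild type and 4.96 to 7.80 CPM in Ko1 (log2FC 3.11 ± 0.62, adjusted p = 0.00561). The subtilisin count was 2, 1 and 1 without wild-type library 1, 2 or 3 and 5, 2 and 5 without Ko1 library 1, 2 or 3. Of 12 tested autophagy genes edgeR called 0, with 1 higher and 0 lower at an unadjusted p under 0.05 and 0 higher and 0 lower by DESeq2.

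**Figure D2:**
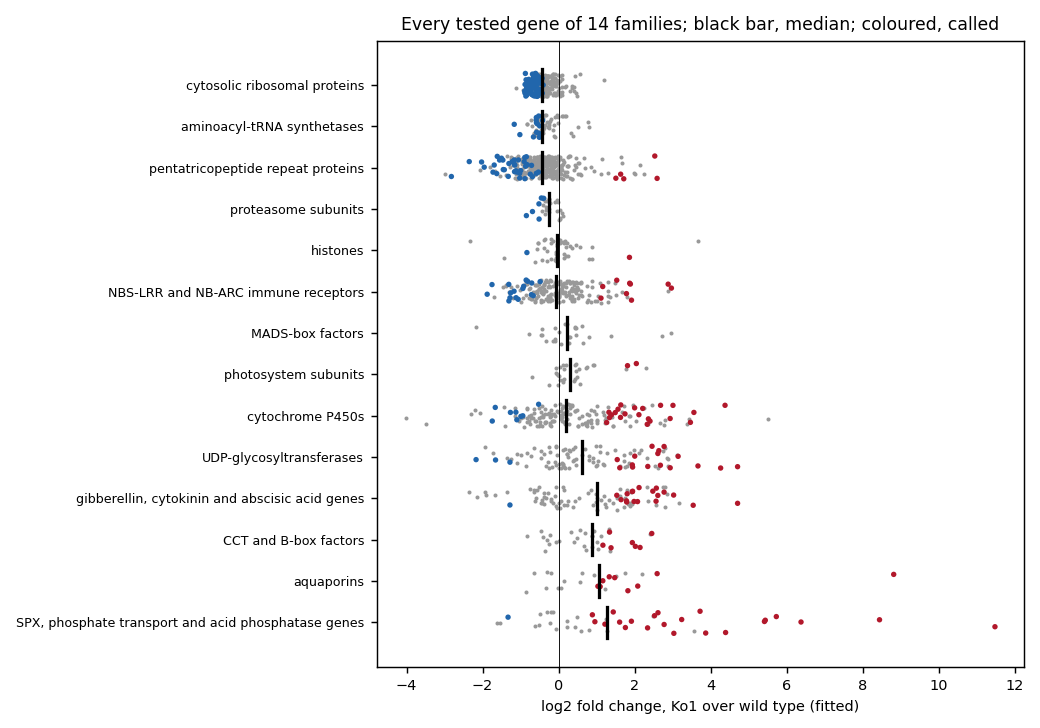
Fitted log2 fold change (Ko1 over wild type, x axis) of every tested gene in 14 families; red, called higher; blue, called lower; grey, not called; black bar, median. The medians run from -0.44 for cytosolic ribosomal proteins to 1.06 for aquaporins and 1.28 for the phosphate genes.

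Several water channel genes rose. Of 24 aquaporin genes 9 (37.5%, against 6.53% of all tested genes) were higher, and the median log2FC of the family was 1.06, with 6 genes below 0. LOC_Os06g22960 had 31.3, 27.3 and 55.1 CPM in wild type and 239, 236 and 212 CPM in Ko1. The 3 Ko1 libraries were alike, and even the highest wild-type library was far below them (log2FC 2.59 ± 0.33, adjusted p = 0.000148). LOC_Os12g10280 had 0 counts in every wild-type library and 2.58, 2.15 and 6.61 CPM in Ko1, so it was at least 61.3-fold higher against a floor of 3 counts over the wild-type group (adjusted p = 0.00639). Summed over the family, aquaporin transcripts held 2501, 2186 and 2736 CPM in the wild type and 3163, 3171 and 3181 CPM in Ko1. The aquaporin count was 2, 3 and 2 without wild-type library 1, 2 or 3 and 6, 8 and 4 without Ko1 library 1, 2 or 3.

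Some sugar carriers and enzymes of carbon storage were higher too. Of 23 sugar transporter genes 8 (34.8%) were higher, 5 of them among the 13 tested MtN3 genes, the family that includes the SWEET carriers that let sucrose and glucose leave cells. LOC_Os01g36070 had 0, 0.0680 and 0.108 CPM in wild type and 1.45, 1.63 and 2.37 CPM in Ko1, close to absent in the wild type (28.8-fold higher in Ko1, with an exact 95% interval of 9.52 to 142 for 3 counts in the wild type, adjusted p = 0.00577). LOC_Os02g19820 had a higher level, with 34.7, 38.1 and 51.5 CPM in wild type and 172, 110.4 and 183 CPM in Ko1 (log2FC 1.90 ± 0.46, adjusted p = 0.0151). Its groups did not overlap, but the call was lost without wild-type library 1 or 2 (adjusted p = 0.067 and 0.0619). Sucrose and trehalose metabolism genes gave 6 higher (14.3%) and 2 lower (4.76%) calls of 42 tested. Neutral or alkaline invertase LOC_Os04g35280, which splits sucrose in the cytosol or organelles, had 18.2, 14.9 and 17.8 CPM in wild type and 47.4, 37.3 and 53.1 CPM in Ko1 (log2FC 1.44 ± 0.31, adjusted p = 0.00852). Of 35 starch genes 7 (20%) were higher, against 6.53% of all tested genes. Among them, LOC_Os10g41550, a beta-amylase of the kind that releases maltose from starch, had 4.42, 3.81 and 3.25 CPM in wild type and 6.16, 20.6 and 13.7 CPM in Ko1, with Ko1 library 2 the highest (log2FC 1.82 ± 0.37, adjusted p = 0.00634). A gene described as an aldose 1-epimerase, LOC_Os09g15820, had 93.8, 109 and 114 CPM in wild type and 787, 494 and 1028 CPM in Ko1 and was among the genes with the largest gain in CPM (log2FC 2.87 ± 0.45, adjusted p = 0.000874). The sugar transporter count was 5, 3 and 6 without wild-type library 1, 2 or 3 and 7, 7 and 5 without Ko1 library 1, 2 or 3. The starch count was 3, 3 and 3 without wild-type library 1, 2 or 3 and 8, 5 and 4 without Ko1 library 1, 2 or 3.

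Enzymes acting on cell walls and glycosides were mostly higher where called. Of 59 glycosyl hydrolase genes 10 (16.9%) were higher. LOC_Os05g15770 had 0, 0.204 and 1.08 CPM in wild type and 127, 131 and 249 CPM in Ko1, nearly absent in the wild type and abundant in all 3 Ko1 libraries (log2FC 8.45 ± 1.43, adjusted p = 0.00182, and 10.56 without wild-type library 3). LOC_Os04g45290 had 5.86 to 6.20 CPM in wild type and 21.7 to 25.6 CPM in Ko1 (log2FC 2.01 ± 0.36, adjusted p = 0.00296). Among 75 cell wall genes 8 (10.7%) were higher and 2 (2.67%) lower, against 6.53% and 4.43% of all tested genes. Beta-expansin gene LOC_Os07g31390, whose product loosens walls, had 3.71, 2.79 and 2.66 CPM in wild type and 12.6, 10.4 and 19.05 CPM in Ko1 (log2FC 2.20 ± 0.47, adjusted p = 0.00834). The hydrolase count was 3, 5 and 5 without wild-type library 1, 2 or 3 and 6, 7 and 7 without Ko1 library 1, 2 or 3. The higher cell wall count was 3, 1 and 1 without wild-type library 1, 2 or 3 and 5, 7 and 4 without Ko1 library 1, 2 or 3.

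Nitrogen transporters moved in both directions. Ureide permease genes LOC_Os12g31850 and LOC_Os12g31860, neighbours on chromosome 12 that carry nitrogen-rich ureides such as allantoin, had 0 counts in the 3 wild-type libraries. LOC_Os12g31850 had 61.3, 48.4 and 59.1 CPM in Ko1, at least 892-fold higher (adjusted p = 0.00489). In the overexpression line at 15DAF, set beside it without a test, this gene had 61.4, 68.6 and 52.4 CPM. Only the wild type was without counts at this stage. Its neighbour LOC_Os12g31860 had 0.503, 3.63 and 1.09 CPM, at least 25.7-fold higher (adjusted p = 0.0112). Copies this alike can share reads, so the split between them is uncertain. Of 10 ammonium, urea and ureide transporter genes 3 were higher and 1 lower, and both directions held among the ammonium transporters. LOC_Os05g39240 had 15.6, 15.8 and 18.7 CPM in wild type and 50.2, 88.7 and 33.8 CPM in Ko1, highest in Ko1 library 2 (log2FC 1.78 ± 0.40, adjusted p = 0.00999). In contrast, LOC_Os02g34580 had 97.97, 99.8 and 102 CPM in wild type and 51.9, 56.8 and 49.7 CPM in Ko1 (log2FC -0.92 ± 0.20, adjusted p = 0.00969). Nitrate and peptide transporter genes gave 7 higher (11.7%) and 4 lower (6.67%) calls of 60 tested, against 6.53% and 4.43% of all tested genes. Ko1 library 2 had the highest level in 7 of the 7 higher genes. LOC_Os06g15370, of the PTR2 class, had 1.35, 1.36 and 0.922 CPM in wild type and 5.66, 6.07 and 2.49 CPM in Ko1 (log2FC 1.96 ± 0.39, adjusted p = 0.00551). The higher count of this family was 3, 1 and 1 without wild-type library 1, 2 or 3 and 6, 1 and 10 without Ko1 library 1, 2 or 3. The lower count was 1, 1 and 1 without wild-type library 1, 2 or 3 and 2, 3 and 1 without Ko1 library 1, 2 or 3.

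Amino acid transporter genes gave 4 higher (5.88%) and 5 lower (7.35%) calls of 68 tested, against 6.53% and 4.43% of all tested genes. The lower ones held the large differences. Permease LOC_Os04g45950 had 26.9, 29.99 and 30.2 CPM in wild type and 0.0629, 0 and 0 CPM in Ko1 (1339-fold lower in Ko1, with an exact 95% interval of 239.9 to 52914 for 1 count in the mutant, adjusted p = 0.00915). Permease LOC_Os01g42234 had 21.7, 21.7 and 24.4 CPM in wild type and 5.72, 2.89 and 4.49 CPM in Ko1, without overlap (log2FC -2.37 ± 0.28, adjusted p = 7.47e-05). The higher amino acid transporter count was 0, 1 and 1 without wild-type library 1, 2 or 3 and 2, 4 and 2 without Ko1 library 1, 2 or 3. The lower count was 3, 4 and 4 without wild-type library 1, 2 or 3 and 4, 6 and 3 without Ko1 library 1, 2 or 3.

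Ion and other small-molecule carriers differed by family. Of 71 iron, zinc and copper transport genes 4 (5.63%) were higher and 5 (7.04%) lower, against 6.53% and 4.43% of all tested genes. DESeq2 called 5 higher and 8 lower. The higher metal transport count was 0, 0 and 1 without wild-type library 1, 2 or 3 and 2, 5 and 0 without Ko1 library 1, 2 or 3, and the lower one 0, 1 and 1 without wild-type library 1, 2 or 3 and 1, 5 and 2 without Ko1 library 1, 2 or 3. Of 66 potassium and cation transporter genes 8 (12.1%) were higher and 2 (3.03%) lower. The organic cation transporter gene LOC_Os04g53930 had 2.99, 3.06 and 2.39 CPM in wild type and 43.01, 65.7 and 45.6 CPM in Ko1, a rise seen in each mutant library (log2FC 4.19 ± 0.57, adjusted p = 0.000259). Among 93 ABC transporter genes 10 (10.8%) were higher and 4 (4.30%) lower, and Ko1 library 3 was the highest in 8 of the 10 higher genes. LOC_Os08g05690 had 0 counts in the wild type and 2.83, 2.89 and 5.70 CPM in Ko1, at least 60.99-fold higher (adjusted p = 0.00751). LOC_Os02g18670 was lower, with 5.99, 5.64 and 4.61 CPM in wild type and 1.13, 1.26 and 0.243 CPM in Ko1 (log2FC -2.63 ± 0.57, adjusted p = 0.00903). The higher cation count was 3, 4 and 4 without wild-type library 1, 2 or 3 and 6, 8 and 5 without Ko1 library 1, 2 or 3. The higher ABC count was 3, 3 and 5 without wild-type library 1, 2 or 3 and 13, 12 and 6 without Ko1 library 1, 2 or 3. The lower ABC count was 3, 3 and 4 without wild-type library 1, 2 or 3 and 4, 9 and 3 without Ko1 library 1, 2 or 3.

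Lipid genes, counted apart from the SPX, phosphate transport and acid phosphatase family, included large rises. Enzymes that replace phospholipids are among the genes switched on at low phosphate, as described above. Whether these rises belong to that response was not tested. Of 100 lipase and phospholipase genes 14 (14%) were higher and 3 lower, and Ko1 library 3 was the highest in 10 of the 14. LOC_Os11g43760, a class 3 lipase, had 0.143, 0 and 0 CPM in wild type and 55.2, 71.7 and 147 CPM in Ko1 (2194-fold higher in Ko1, with an exact 95% interval of 607 to 18126 for 2 counts in the wild type, adjusted p = 0.000178). Phospholipase D genes, whose products cut head groups from phospholipids, were represented by LOC_Os01g20860 with 5.42, 8.09 and 5.10 CPM in wild type and 63.4, 67.2 and 98.6 CPM in Ko1 (log2FC 3.62 ± 0.39, adjusted p = 2.98e-05). The other, LOC_Os06g44060, had 6.06 to 8.30 CPM in wild type and 35.7 to 58.4 CPM in Ko1 (log2FC 2.67 ± 0.28, adjusted p = 2.43e-05). Both were separated from the wild type in all libraries. Fatty acid and wax synthesis genes were called both ways, with 6 (9.09%) higher and 5 (7.58%) lower of 66 tested. Over all tested genes 6.53% were higher and 4.43% lower. Among the higher ones, fatty acid desaturase LOC_Os02g48560 had 26.1, 23.1 and 28.5 CPM in wild type and 73.4, 118 and 109 CPM in Ko1 (log2FC 1.95 ± 0.30, adjusted p = 0.000844). The diacylglycerol kinase 1 gene LOC_Os03g31180, whose product turns diacylglycerol into phosphatidic acid, moved the other way with 54.2, 55.7 and 57.6 CPM in wild type and 15.97, 15.1 and 18.6 CPM in Ko1 (log2FC -1.75 ± 0.22, adjusted p = 0.000143). The lipid transfer protein genes LTPL8 (LOC_Os11g02400) and LTPL13 (LOC_Os12g02330) lie in the duplicated ends of chromosomes 11 and 12 and may share reads. LTPL8 had 213, 236 and 254 CPM in wild type and 1233, 509 and 1066 CPM in Ko1. LTPL13 had 211, 216 and 285 CPM in wild type and 921, 449 and 738 CPM in Ko1. In both, Ko1 library 2 was the lowest of the mutant libraries and still above the wild type (log2FC 2.00 ± 0.41, adjusted p = 0.00681 for LTPL8, and log2FC 1.57 ± 0.34, adjusted p = 0.0086 for LTPL13). The lipase count was 6, 8 and 6 without wild-type library 1, 2 or 3 and 12, 13 and 10 without Ko1 library 1, 2 or 3.

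**Figure D3:**
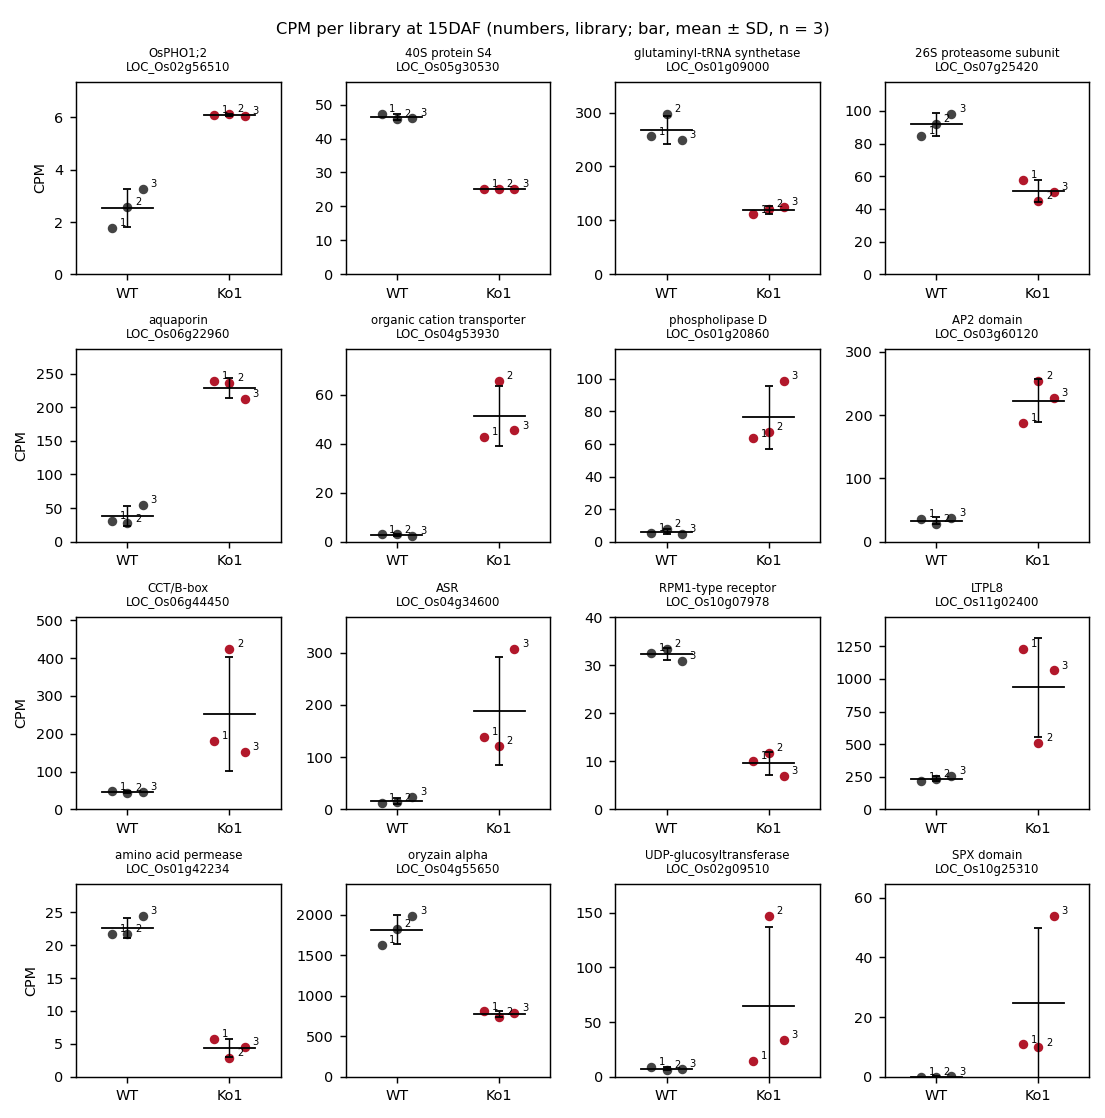
CPM per library (y axis, linear, from 0) for 16 genes named in the text, with library numbers beside the points and mean ± SD (n = 3). The groups do not overlap in any panel, which also held for 2208 of all 2240 called genes and so adds no separate support. Single mutant libraries stand far above the others for LOC_Os02g09510 (library 2, 147 CPM) and LOC_Os10g25310 (library 3, 53.9 CPM).

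Genes with a hormone term in their description had many higher calls, and Ko1 library 2 was the highest mutant library in most of them. The term does not show that a gene makes or perceives the hormone. Of 92 genes described by gibberellin, cytokinin or abscisic acid, 18 (19.6%) were higher and 1 was lower, with a median log2FC of 1.01. Both abscisic stress-ripening (ASR) genes that were called stood out by level. LOC_Os11g06720 had 325, 310.4 and 626 CPM in wild type and 1565, 949 and 1425 CPM in Ko1, and its highest wild-type library was library 3 (log2FC 1.64 ± 0.34, adjusted p = 0.00713). LOC_Os04g34600 had 12.4, 13.2 and 22.99 CPM in wild type and 138, 121 and 308 CPM in Ko1, highest in Ko1 library 3 (log2FC 3.54 ± 0.68, adjusted p = 0.00443). Ko1 library 2 was the highest mutant library in 15 of the 18 higher genes. Of 29 tested genes described as gibberellin receptor GID1L2, 7 were higher, and Ko1 library 2 was the highest in all 7. LOC_Os06g20200 had 0.428, 0.136 and 0.434 CPM in wild type and 1.19, 6.74 and 0.546 CPM in Ko1 (log2FC 3.03 ± 0.85, adjusted p = 0.0313, and 1.35 without Ko1 library 2). Its call was lost without wild-type library 1, 2 or 3 (adjusted p = 0.0869, 0.118 and 0.0845) and without Ko1 library 2 (adjusted p = 0.242). The description names similarity to the receptor, and hormone binding was not measured. The hormone gene count was 7, 5 and 6 without wild-type library 1, 2 or 3 and 19, 6 and 22 without Ko1 library 1, 2 or 3. Without Ko1 library 2, 6.38% of the family were higher, near the 5.63% of all genes in that fit.

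Enzymes that glycosylate or oxidise small molecules were also most often highest in Ko1 library 2. Of 101 UDP-glycosyltransferase genes 16 (15.8%) were higher and 3 lower, with a median log2FC of 0.62, and Ko1 library 2 was the highest in 15 of the 16. These include 5 higher cytokinin glucosyltransferase genes that are also in the hormone count. LOC_Os06g18010 had 1.71, 1.84 and 1.46 CPM in wild type and 10.4, 29.8 and 23.6 CPM in Ko1 (log2FC 3.67 ± 0.57, adjusted p = 0.000874). LOC_Os02g09510, described as a limonoid glucosyltransferase, had 8.76, 6.32 and 6.94 CPM in wild type and 14.6, 147 and 33.4 CPM in Ko1. Ko1 library 2 was far above the other mutant libraries, which in turn were above the wild type (log2FC 3.14 ± 0.64, adjusted p = 0.00638, and 1.71 without Ko1 library 2). Of 171 cytochrome P450 genes 21 (12.3%) were higher and 8 lower. LOC_Os06g01250 had 3.06, 4.01 and 7.27 CPM in wild type and 20.8, 90.96 and 48.4 CPM in Ko1 (log2FC 3.47 ± 0.64, adjusted p = 0.00352, and 2.84 without Ko1 library 2). Another, LOC_Os01g43750, of the CYP72A1 class, was lower with 128, 138 and 130.04 CPM in wild type and 36.3, 48.3 and 33.7 CPM in Ko1 (log2FC -1.75 ± 0.21, adjusted p = 0.000104). Phenylpropanoid genes gave 10 higher calls (13.2%) and 1 lower call (1.32%) of 76, against 6.53% and 4.43% of all tested genes. Dirigent protein LOC_Os12g07580, of a family that steers lignan and lignin coupling, had 2.64, 4.08 and 2.77 CPM in wild type and 20.8, 24.4 and 18.9 CPM in Ko1 (log2FC 2.76 ± 0.54, adjusted p = 0.00507). The glycosyltransferase count was 8, 8 and 8 without wild-type library 1, 2 or 3 and 17, 8 and 18 without Ko1 library 1, 2 or 3. The P450 count was 7, 4 and 6 without wild-type library 1, 2 or 3 and 22, 12 and 17 without Ko1 library 1, 2 or 3. Without Ko1 library 2, 7.69% of the glycosyltransferases and 6.82% of the P450 genes were higher, where 5.63% of all genes were. The phenylpropanoid count was 3, 5 and 5 without wild-type library 1, 2 or 3 and 8, 9 and 7 without Ko1 library 1, 2 or 3.

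Transcription factor families differed in how many members moved. Of 34 CCT and B-box genes, a group that includes regulators of light responses and flowering, 7 (20.6%) were higher with a family median of 0.88. LOC_Os06g44450 had 47.4, 44.1 and 47.02 CPM in wild type and 180.5, 425 and 152 CPM in Ko1. Likewise, LOC_Os03g50310 had 23.02, 19.5 and 28.6 CPM in wild type and 90.1, 167 and 57.7 CPM in Ko1. In both, as in all 7 higher members, Ko1 library 2 was the highest (log2FC 2.45 ± 0.46, adjusted p = 0.00354, and 1.85 without Ko1 library 2 for the first, and log2FC 2.14 ± 0.32, adjusted p = 0.000655 for the second). The B-box count was 5, 5 and 4 without wild-type library 1, 2 or 3 and 6, 6 and 7 without Ko1 library 1, 2 or 3. Of 136 MYB genes 12 (8.82%) were higher and 1 (0.735%) lower, against 6.53% and 4.43% of all tested genes. LOC_Os02g22020 had 0.499, 0.476 and 0.542 CPM in wild type and 23.1, 29.6 and 43.7 CPM in Ko1 (log2FC 5.96 ± 0.74, adjusted p = 0.000119). The Myb-like gene LOC_Os06g49040 had 17.2, 17.6 and 18.3 CPM in wild type and 119, 97.03 and 185 CPM in Ko1 (log2FC 2.91 ± 0.25, adjusted p = 2.77e-06). The AP2 domain gene LOC_Os03g60120, among the 10 higher genes with the smallest p, had 35.6, 28.02 and 37.3 CPM in wild type and 187, 254 and 228 CPM in Ko1 (log2FC 2.73 ± 0.21, adjusted p = 1.13e-06). NAC genes gave 5 higher (8.62%) and 4 lower (6.90%) calls of 58. Among the higher ones, LOC_Os07g48450 had 7.77, 5.64 and 9.11 CPM in wild type and 28.4, 41.4 and 56.7 CPM in Ko1 (log2FC 2.49 ± 0.41, adjusted p = 0.00134). The bHLH gene LOC_Os05g04740 had 3.42, 3.94 and 2.49 CPM in wild type and 10.8, 37.5 and 12.9 CPM in Ko1 (log2FC 2.63 ± 0.54, adjusted p = 0.00667, and 1.85 without Ko1 library 2). Heat stress factor LOC_Os07g08140 had 2.52 to 5.48 CPM in wild type and 13.6 to 25.2 CPM in Ko1 (log2FC 2.16 ± 0.41, adjusted p = 0.00402). Of 27 MADS-box genes edgeR called 0, with 3 higher and 1 lower at an unadjusted p under 0.05 and 0 higher and 1 lower by DESeq2. OsMADS14 (LOC_Os03g54160) had 310.2, 308 and 327 CPM in wild type and 398, 275 and 218 CPM in Ko1, with overlapping groups (log2FC -0.09 ± 0.21, adjusted p = 0.819). The MYB count was 8, 6 and 9 without wild-type library 1, 2 or 3 and 11, 13 and 11 without Ko1 library 1, 2 or 3.

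Immune receptor genes were called in both directions. Of 205 NBS-LRR and NB-ARC genes, intracellular receptors that detect pathogen effectors, 17 (8.29%) were lower and 9 (4.39%) higher, and the family median was -0.07. DESeq2 called 19 higher and 19 lower. LOC_Os10g07978, of the RPM1 type and picked out after its values were seen, had 32.6, 33.5 and 30.97 CPM in wild type and 9.999, 11.8 and 7.04 CPM in Ko1, without overlap (log2FC -1.75 ± 0.25, adjusted p = 0.000406). A further 5 lower genes, picked out in the same way, lie within a short stretch of chromosome 11: LOC_Os11g11960, LOC_Os11g12000, LOC_Os11g12040, LOC_Os11g12050 and LOC_Os11g12330. The most abundant, LOC_Os11g11960, had 417, 428 and 364 CPM in wild type and 169, 189 and 128 CPM in Ko1 (log2FC -1.31 ± 0.27, adjusted p = 0.00615). Of the others, LOC_Os11g12000 lost its call without wild-type library 1, 2 or 3 (adjusted p = 0.0827, 0.0765 and 0.0512) and without Ko1 library 1 (adjusted p = 0.0811), LOC_Os11g12040 without wild-type library 2 (adjusted p = 0.0559) and without Ko1 library 1 or 3 (adjusted p = 0.0505 and 0.0554), LOC_Os11g12050 without wild-type library 1 or 2 (adjusted p = 0.0692 and 0.0829) and without Ko1 library 1 or 3 (adjusted p = 0.071 and 0.087), and LOC_Os11g12330 without wild-type library 1 or 2 (adjusted p = 0.0811 and 0.0941) and without Ko1 library 1 or 3 (adjusted p = 0.0864 and 0.102). Family members LOC_Os11g11770 and LOC_Os11g12340, with locus numbers near these, were also called and are not described here. Related receptors in a cluster can share reads. Surface receptor kinases were mixed. LOC_Os01g48020, an S-locus-like kinase, had 37.3, 39.2 and 35.7 CPM in wild type and 10.8, 14.6 and 9.58 CPM in Ko1 (log2FC -1.68 ± 0.26, adjusted p = 0.00089). Its relative LOC_Os06g06960 of the same description had 29.6, 31.9 and 29.9 CPM in wild type and 104, 55.7 and 116 CPM in Ko1 (log2FC 1.59 ± 0.36, adjusted p = 0.0103). The phytosulfokine receptor precursor gene LOC_Os02g05970, for a receptor of a growth-promoting peptide, had 8.84, 9.79 and 10.03 CPM in wild type and 1.64, 2.44 and 1.64 CPM in Ko1 (log2FC -2.33 ± 0.51, adjusted p = 0.0096). The lower immune receptor count was 4, 4 and 9 without wild-type library 1, 2 or 3 and 5, 27 and 5 without Ko1 library 1, 2 or 3. The higher count was 3, 2 and 3 without wild-type library 1, 2 or 3 and 5, 8 and 6 without Ko1 library 1, 2 or 3.

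Calcium signalling genes had calls in both directions. Of 83 calcium-dependent and CAMK-type kinase genes 12 (14.5%) were higher and 5 (6.02%) lower, against 6.53% and 4.43% of all tested genes. LOC_Os04g43710 had 1.35, 0.952 and 2.28 CPM in wild type and 19.7, 37.3 and 29.7 CPM in Ko1 (log2FC 4.21 ± 0.47, adjusted p = 3.57e-05). Of 117 calmodulin-like and EF hand genes, calcium sensors, 9 (7.69%) were higher and 12 (10.3%) lower. This balance was not stable: DESeq2 called 14 higher and 14 lower, and a fit of the 6 libraries alone 11 higher and 8 lower. EF hand gene LOC_Os10g09850 had 6.34, 6.53 and 11.8 CPM in wild type and 33.8, 20.4 and 47.5 CPM in Ko1 (log2FC 2.04 ± 0.42, adjusted p = 0.00635). A second one, LOC_Os03g59770, had 4.13, 3.54 and 1.52 CPM in wild type and 0.314, 0.888 and 0.607 CPM in Ko1 (log2FC -2.34 ± 0.43, adjusted p = 0.00339). Protein phosphatase 2C genes, some of which repress abscisic acid signalling, gave 4 higher (6.25%) and 4 lower (6.25%) calls of 64. Of these LOC_Os10g39780 had 57.3, 61.1 and 64.9 CPM in wild type and 24.1, 27.7 and 22.3 CPM in Ko1 (log2FC -1.31 ± 0.17, adjusted p = 0.00019). The kinase count was 5, 4 and 4 without wild-type library 1, 2 or 3 and 7, 9 and 7 without Ko1 library 1, 2 or 3. The higher sensor count was 5, 4 and 5 without wild-type library 1, 2 or 3 and 6, 11 and 5 without Ko1 library 1, 2 or 3. The lower sensor count was 4, 2 and 7 without wild-type library 1, 2 or 3 and 5, 9 and 3 without Ko1 library 1, 2 or 3.

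The chaperone and redox families given here had no large excess of calls over all genes, of which 6.53% were higher and 4.43% lower. Of 75 heat shock protein and chaperone genes 3 (4%) were higher and 3 (4%) lower. The DnaK gene LOC_Os06g10990, of the Hsp70 class that refolds proteins, had 0.0713, 0 and 0.0542 CPM in wild type and 8.43, 3.40 and 12.9 CPM in Ko1. It was near 0 in the wild type and highest in Ko1 library 3 (201-fold higher in Ko1, with an exact 95% interval of 55.4 to 1669 for 2 counts in the wild type, adjusted p = 0.000874). The STI-type co-chaperone gene LOC_Os04g45480 had 21.2, 19.4 and 11.7 CPM in wild type and 33.96, 37.4 and 48.2 CPM in Ko1 (log2FC 1.19 ± 0.25, adjusted p = 0.00711). Copper/zinc superoxide dismutase LOC_Os08g44770 had 109, 87.4 and 94.5 CPM in wild type and 171, 169.6 and 213 CPM in Ko1 (log2FC 0.93 ± 0.17, adjusted p = 0.00339). Of 39 class III peroxidase genes 2 (5.13%) were lower and 0 higher. Of 68 thioredoxin and glutaredoxin genes 4 (5.88%) were lower and 0 higher. Of 52 glutathione S-transferase genes 2 were higher and 3 lower. The peroxidase count was 0, 0 and 1 without wild-type library 1, 2 or 3 and 0, 1 and 0 without Ko1 library 1, 2 or 3. The thioredoxin and glutaredoxin count was 0, 0 and 0 without wild-type library 1, 2 or 3 and 1, 0 and 1 without Ko1 library 1, 2 or 3. Histone genes gave 1 higher and 1 lower call of 47.

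Other single genes had large and well separated differences. LOC_Os10g28350, described as a dioxygenase of the methionine salvage cycle, had 25.5, 35.5 and 34.9 CPM in wild type and 0.377, 0 and 0.849 CPM in Ko1. It was close to silent in every mutant library (log2FC -6.20 ± 0.91, adjusted p = 0.000553, and -7.24 without Ko1 library 3). A decarboxylase gene, LOC_Os02g33710, had 176, 175 and 207 CPM in wild type and 43.5, 41.7 and 29.6 CPM in Ko1 (log2FC -2.28 ± 0.24, adjusted p = 2.31e-05). The YT521-B gene LOC_Os04g51940, of the class that reads methylated adenosines in RNA, had 99.97, 115 and 109 CPM in wild type and 45.03, 59.3 and 54.3 CPM in Ko1 (log2FC -1.03 ± 0.13, adjusted p = 0.000104). An F-box protein gene, LOC_Os10g41838, had 24.9, 24.6 and 25.9 CPM in wild type and 1.51, 0.148 and 0.485 CPM in Ko1 (log2FC -5.09 ± 0.97, adjusted p = 0.00423, and -6.21 without Ko1 library 1). Among the higher genes, U-box gene LOC_Os04g49500, a likely ubiquitin ligase, had 0.214, 0.204 and 0.108 CPM in wild type and 12.5, 11.6 and 21.9 CPM in Ko1 (log2FC 6.42 ± 0.97, adjusted p = 0.000687). Protein disulfide isomerase LOC_Os04g51920, which forms disulfide bonds in secreted proteins, had 5.56, 6.80 and 7.86 CPM in wild type and 80.4, 54.03 and 91.1 CPM in Ko1 (log2FC 3.47 ± 0.27, adjusted p = 1.2e-06). The phosphate genes themselves are the family with the largest share of calls, 22 higher and 1 lower of 43, and Ko1 library 3 was the highest in 19 of the 22 higher genes. Their higher count was 18, 19 and 19 without wild-type library 1, 2 or 3 and 21, 23 and 19 without Ko1 library 1, 2 or 3.

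Photosynthesis genes were called at about the rate of all genes. Of 17 chlorophyll a/b-binding genes 1 (5.88%) was higher and of 32 photosystem genes 2 (6.25%), against 6.53% of all tested genes, with family medians of -0.07 and 0.29. The called chlorophyll a/b-binding gene, LOC_Os01g52240, has a low level, with 0.926, 0.544 and 0.542 CPM in wild type and 7.86, 44.8 and 9.40 CPM in Ko1, and Ko1 library 2 was the highest (log2FC 4.94 ± 0.71, adjusted p = 0.000449, and 3.69 without Ko1 library 2). Photosystem Q gene LOC_Os10g21192 had 13.2, 22.03 and 31.5 CPM in wild type and 67.1, 139.7 and 69.1 CPM in Ko1 (log2FC 2.04 ± 0.52, adjusted p = 0.0204), and its call was lost without wild-type library 1 or 2 (adjusted p = 0.0931 and 0.0732) and without Ko1 library 2 (adjusted p = 0.0668). Of 5 Rubisco small subunit and activase genes edgeR called 0, with 1 higher and 0 lower at an unadjusted p under 0.05 and 0 higher and 0 lower by DESeq2. The summed level of such leaf genes in each library is given above, and its part in these values was not tested.

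A set of genes was read in 1 genotype alone. Genes were taken with a minimum of 1 CPM in all 3 libraries of 1 genotype and 0 counts in all 3 of the other. By this measure 14 genes were read in Ko1 and 24 in the wild type, and all were called. These genes were picked by full separation of the same values, so their calls add no separate support. Only 12 of the 14 and 11 of the 24 were also called in each of the 6 fits without 1 library. Those named here were chosen after their values were seen. Of the Ko1 genes 1 is described as a mobile element, and of the wild-type genes 14 are. Among all 20437 tested genes, 403 are retrotransposon and 298 DNA transposon genes. The difference between the 2 lists was not tested. Mobile element copies are alike, so their counts are uncertain. The overexpression line, set beside them without a test, had 3 counts or fewer in total for 12 of the 14 Ko1 genes. The exceptions are MGD2 (LOC_Os08g20420), with 0.0596, 0.193 and 0.251 CPM, and ureide permease LOC_Os12g31850, with 61.4, 68.6 and 52.4 CPM, as high as in Ko1. For the wild-type genes, 11 of 24 were also at 0 in all 3 overexpression libraries, and 3 were at 1 CPM or more in every one.

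Expressed gene LOC_Os10g30240 had 22.5, 23.5 and 25.1 CPM in the wild type and 0 in Ko1, at least 364-fold lower against a floor of 3 counts over the mutant group (adjusted p = 0.0166), and 0 in the overexpression line. DESeq2 did not call it, with an adjusted p of 0.0918. Leucine-rich repeat gene LOC_Os07g31840 had 4.28, 4.08 and 2.44 CPM in the wild type, at least 53.5-fold more than Ko1 (adjusted p = 0.0164). Retrotransposon gene LOC_Os04g18770 was read in the wild type at 5.99, 5.10 and 2.98 CPM and in the overexpression line at 5.06, 9.43 and 5.21 CPM. It was at least 69.4-fold lower in Ko1 (adjusted p = 0.00189). Some of these loci are neighbours: LOC_Os05g36220, LOC_Os05g36230 and LOC_Os05g36240 lie together on chromosome 5 between 21475163 and 21485145. LOC_Os05g36240 had 19.2, 19.1 and 13.1 CPM in the wild type and 0 in Ko1, with 6.67, 0 and 0 CPM in the overexpression line, so the 3 overexpression libraries differed among themselves. Its call was lost without wild-type library 1, 2 or 3 (adjusted p = 0.0608, 0.0605 and 0.0527) and without Ko1 library 1, 2 or 3 (adjusted p = 0.0624, 0.0501 and 0.0657). Of its neighbours, LOC_Os05g36220 lost its call in each of the 6 fits without 1 library, and LOC_Os05g36230 in 5 of them. DESeq2 gave these neighbours an adjusted p of 0.171 and 0.0627. In Ko1, LOC_Os11g13720, an expressed protein gene, had 6.48, 5.48 and 5.22 CPM, at least 90.1-fold higher (adjusted p = 0.00179). The glucan endo-beta-glucosidase precursor gene LOC_Os07g35350 had 2.01, 3.18 and 3.28 CPM, at least 44.2-fold higher (adjusted p = 0.00987).

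**Figure D4:**
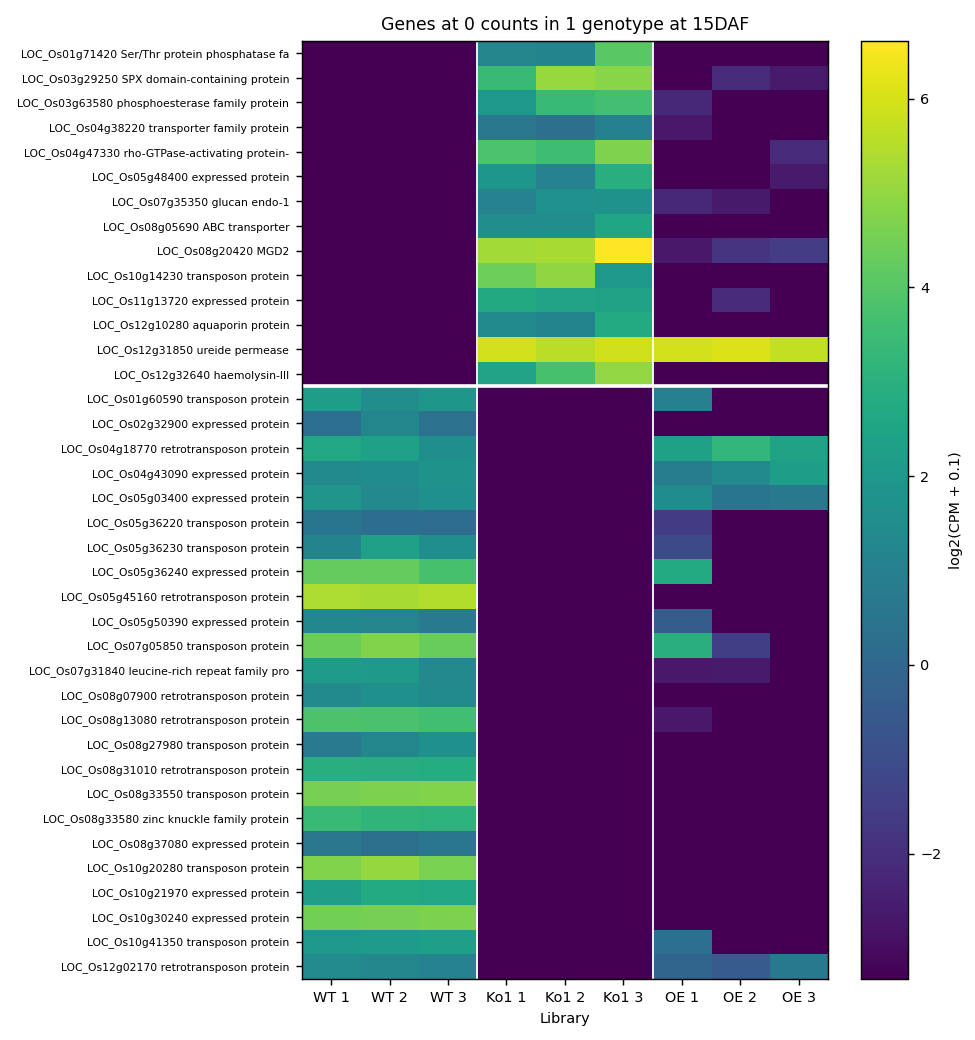
Heat map of log2(CPM + 0.1) in the 9 libraries at 15DAF for the 14 genes with 0 counts in the wild type (above the white line) and the 24 with 0 counts in Ko1 (below it). The overexpression columns are dark for most genes of both lists, with LOC_Os12g31850 bright in all 3.

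Taken over all loci described as mobile elements, calls went both ways at rates near those of all genes. Retrotransposon genes gave 28 higher (6.95%) and 19 lower (4.71%) calls of 403 tested, and DNA transposon genes 18 (6.04%) and 16 (5.37%) of 298. The higher retrotransposon count was 11, 9 and 10 without wild-type library 1, 2 or 3 and 20, 20 and 25 without Ko1 library 1, 2 or 3. The lower one was 9, 8 and 11 without wild-type library 1, 2 or 3 and 10, 16 and 10 without Ko1 library 1, 2 or 3. The higher DNA transposon count was 7, 7 and 5 without wild-type library 1, 2 or 3 and 13, 17 and 12 without Ko1 library 1, 2 or 3. The lower one was 4, 4 and 4 without wild-type library 1, 2 or 3 and 6, 11 and 4 without Ko1 library 1, 2 or 3. Over all genes, calls in the same direction at 3 neighbouring tested genes were found 12 times for higher and 6 times for lower genes, and no longer row was found.

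Some differences were carried by 1 library. A gene was put to 1 library when its CPM + 0.5 there was at least 4 times, or at least 4 times lower than, that in each of the other 5 libraries, with at least 5 CPM on the higher side. Ko1 library 2 alone was high for 101 genes, against 12 for Ko1 library 3, 1 for Ko1 library 1, and 2, 0 and 0 for the wild-type libraries. Genes low in 1 library alone were few, with 5, 4 and 6 for Ko1 library 1, 2 and 3 and 0, 2 and 0 for the wild type. Of the 101 genes high in Ko1 library 2, 46 were called higher with all libraries, where 11.0% of all tested genes were called. Without that library 6 of these 46 were still called, whereas 1569 of all 2240 calls were kept. That fit called 10.1% of the genes it tested. Of the 12 high in Ko1 library 3, 9 were called and 2 of these held without it, where 1174 of all 2240 calls were kept. These genes were picked by a high value in 1 Ko1 library, so their calls add no separate support.

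Genes high or low in Ko1 library 2 alone included regulators and retrotransposons. LOC_Os01g71970, a GRAS family transcription factor gene, had 0.998, 0.680 and 2.06 CPM in wild type and 2.20, 31.9 and 2.24 CPM in Ko1. Its call (adjusted p = 0.0416) was lost without wild-type library 1, 2 or 3 (adjusted p = 0.133, 0.14 and 0.081) and without Ko1 library 2 (adjusted p = 0.52). LOC_Os10g30870, an expressed protein gene, had 8.12, 2.58 and 6.78 CPM in wild type and 8.11, 116 and 6.43 CPM in Ko1, with libraries 1 and 3 of Ko1 at the wild-type level (adjusted p = 0.0424). Here the call was lost without wild-type library 1, 2 or 3 (adjusted p = 0.0981, 0.147 and 0.111) and without Ko1 library 2 (adjusted p = 0.758). LOC_Os10g26850 had 4.49, 4.01 and 3.69 CPM in wild type and 5.91, 61.9 and 6.37 CPM in Ko1 (adjusted p = 0.0426), and this call was lost without wild-type library 1, 2 or 3 (adjusted p = 0.117, 0.123 and 0.127) and without Ko1 library 2 (adjusted p = 0.532). Retrotransposon gene LOC_Os09g19300 had 0.499, 0.272 and 0.271 CPM in wild type and 0.629, 21.1 and 0.546 CPM in Ko1 and was not called (adjusted p = 0.0511). The legume lectin gene LOC_Os06g22290 had 0.214, 0.136 and 0.163 CPM in wild type and 0.189, 6.51 and 0 CPM in Ko1 (adjusted p = 0.0774). In the other direction, LOC_Os04g42090, annotated as a conserved-peptide upstream reading frame transcript, had 736, 823 and 863 CPM in wild type and 537, 116 and 667 CPM in Ko1, so that library 2 was far below every other library, and was not called (adjusted p = 0.546). The ZIM motif gene LOC_Os09g23660, of the family that holds jasmonate signalling repressors, had 111, 41.1 and 115 CPM in wild type and 35.7, 7.40 and 101 CPM in Ko1 (adjusted p = 0.372).

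Of the genes higher by this measure in Ko1 library 3 than in the other mutant libraries, some were also called without it. The SPX domain gene LOC_Os10g25310 had 0.0713, 0 and 0.108 CPM in wild type and 10.9, 9.84 and 53.9 CPM in Ko1. Libraries 1 and 2 were also far above the wild type, and the groups did not overlap (409-fold higher in Ko1, with an exact 95% interval of 139.6 to 1987 for 3 counts in the wild type, adjusted p = 0.000684). Without library 3 its adjusted p was 0.00263. Phosphatase gene LOC_Os01g71420, of the Ser/Thr type, had 0 counts in the wild type and 2.20, 2.15 and 16.8 CPM in Ko1, at least 117-fold higher (adjusted p = 0.00561, and 0.018 without library 3). Chalcone isomerase LOC_Os12g02370, of flavonoid synthesis, had 2.07, 4.15 and 7.05 CPM in wild type and 11.01, 10.9 and 59.8 CPM in Ko1 (adjusted p = 0.0451). Its call was lost without wild-type library 1, 2 or 3 (adjusted p = 0.156, 0.133 and 0.077) and without Ko1 library 3 (adjusted p = 0.328). The O-methyltransferase gene LOC_Os04g11970 had 0, 0 and 0.813 CPM in wild type and 1.70, 1.85 and 16.8 CPM in Ko1 (adjusted p = 0.0465). That call was lost without wild-type library 1 or 2 (adjusted p = 0.149 and 0.147) and without Ko1 library 3 (adjusted p = 0.287). The reverse case is the phenylalanine ammonia-lyase gene LOC_Os04g43760, which feeds phenylpropanoid synthesis, with 8.05, 9.52 and 7.97 CPM in wild type and 13.5, 20.9 and 0.182 CPM in Ko1: library 3 was near 0, libraries 1 and 2 were above the wild type, and no difference was called (adjusted p = 0.725). The cytochrome b5-like gene LOC_Os02g55060 had 93.8, 93.1 and 139 CPM in wild type and 188, 133 and 10.6 CPM in Ko1, again low in library 3 alone (adjusted p = 0.988).

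Ko1 library 1 and the wild-type libraries had fewer such genes. In Ko1 library 1, peptide transporter LOC_Os03g48180 had 26.1, 22.6 and 23.6 CPM in wild type and 0.314, 51.8 and 27.2 CPM in Ko1. The chloroplast lipoxygenase gene LOC_Os08g39850, of the class that starts jasmonate synthesis, had 44.96, 38.7 and 35.2 CPM in wild type and 3.08, 168 and 43.2 CPM in Ko1. Ko1 library 1 was low and library 2 high for the lipoxygenase, and neither gene was called (adjusted p = 0.93 and 0.443). In wild-type library 2, the hsp20 gene LOC_Os03g15960 had 9.19, 0.272 and 12.4 CPM in wild type and 14.4, 17.1 and 13.1 CPM in Ko1, low in that library alone (adjusted p = 0.332). In wild-type library 1, expressed gene LOC_Os12g06335 had 43.5, 7.62 and 0.163 CPM in wild type and 0.126, 0.0740 and 0.121 CPM in Ko1 (adjusted p = 0.0633).

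The families also differed in which mutant library was the highest. Among all 1334 higher genes, the highest Ko1 library was library 3 for 647 (48.5%), library 2 for 504 (37.8%) and library 1 for 183 (13.7%). Library 2 was the highest for 15 of 16 UDP-glycosyltransferases, 15 of 18 hormone genes, 7 of 7 CCT and B-box genes, 7 of 7 nitrate and peptide transporters and 13 of 21 cytochrome P450s. Library 3 was the highest for 19 of 22 phosphate genes, 10 of 14 lipases and phospholipases, 8 of 10 ABC transporters, 8 of 9 calmodulin-like and EF hand genes and 6 of 8 sugar transporters. These shares describe 3 libraries and were not tested. Among the 906 lower genes, library 3 was the lowest for 396, library 2 for 263 and library 1 for 247.

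**Figure D5:**
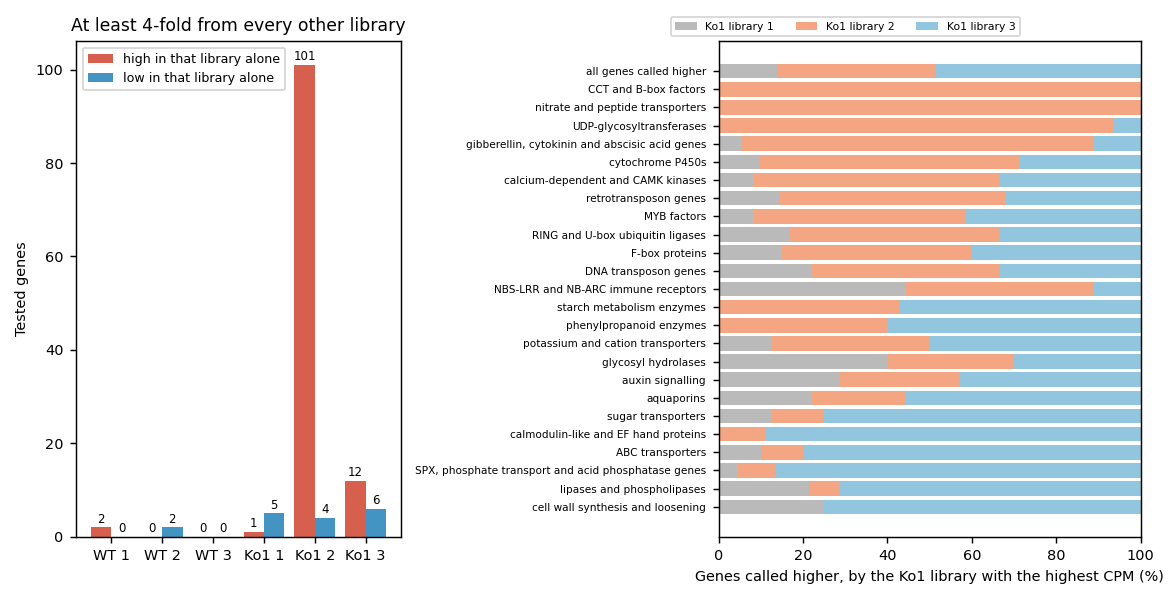
Left, tested genes at least 4-fold above or below every other library, per library; Ko1 library 2 stands out with 101 high genes. Right, for families with at least 7 genes called higher, the percentage of those genes with the highest CPM in Ko1 library 1, 2 or 3; CCT and B-box and glycosyltransferase genes are led by library 2, and phosphate, lipase and ABC transporter genes by library 3.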

How the data were processed

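RNA of flag leaves (RNeasy Plant Mini Kit, Illumina libraries, per the labels) gave 1 deposited table. It holds the authors' raw read counts per gene, per the file headers, and FPKM values (counts scaled by depth and gene length), also the authors' own, per the file headers. Counts entered all tests, and FPKM served only to check them: over 15745 genes with more than 20 counts in each library, the ratios of both units between libraries differed by a factor of at most 1.00004. The submitters' processing notes name Bowtie 0.12.2 and the mouse build mm8, while the rows are rice loci. The rice build, the annotation, the counter and its strand setting are not stated there, so reads of antisense or overlapping genes may be mixed.

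Genes passing edgeR's filterByExpr were fitted over all 18 libraries in 6 groups (edgeR 4.0.16, R 4.3.3, TMM, quasi-likelihood F-test, 2-sided, Benjamini-Hochberg over 20437 genes). The code was first run on simulated counts with known changes. That run gave all genes and groups the same spread, so it cannot speak to the wider spread of the Ko1 libraries. The standard error is the log2 fold change divided by the square root of F. DESeq2 1.42.0 was an alternative. Replicate numbers were not treated as pairs. Families are sets of description words, and a gene can be in several. Genes were named by a rule: per family, up to 4 called genes with the largest change and at least 1 CPM, or the 2 most abundant where none was called; over all genes and in each direction, the 15 largest changes (described genes of at least 5 CPM without overlap), the 10 largest CPM differences and the 10 smallest p; and up to 6 genes per library and direction for those high or low in 1 library. The families, lists and rule were chosen with earlier results of these data known. Intervals, floors and bounds cover counting error only, since reads are not independent molecules.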

Additional observations from a re-analysis of the deposited data

How the results depend on the processing

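DESeq2 called 3498 genes, 2075 higher and 1423 lower, and a threshold of 0.01 left 619, 431 higher and 188 lower. Without 1 library the count ranged from 814 to 2110, with 510 to 1175 higher and 270 to 935 lower. RLE scaling, no low-count filter, a fit of the 6 libraries alone and a fit without wild-type library 3 of 5DAF stayed within 1.5 times of the reported count. The shared replicate numbers do not pair the libraries: the deviations of same-numbered libraries from their group means correlated at -0.065, -0.024 and -0.005. A replicate block gave 2497 genes, 1411 higher and 1086 lower. Of the 109 genes named, 109 kept their direction and call with RLE scaling, 98 with DESeq2 and 104 with the replicate block. With DESeq2, 8 named calls were lost or had no adjusted p: LOC_Os01g71420, LOC_Os05g15770 and LOC_Os10g30870 (no adjusted p), LOC_Os04g11970, LOC_Os05g36220, LOC_Os05g36230, LOC_Os10g30240 and LOC_Os12g02370. With the replicate block and with the 6 libraries alone, the calls of LOC_Os01g71970, LOC_Os10g26850 and LOC_Os10g30870, genes high in Ko1 library 2 alone, were lost, and with the 6 libraries alone that of LOC_Os04g11970 also. Uncalled LOC_Os09g19300 was called without the filter and without wild-type library 3 of 5DAF, and uncalled LOC_Os12g06335 without the filter and by DESeq2.

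Log2 fold changes changed sign only among 6 named genes without a call. With the replicate block LOC_Os02g55060 was at -0.30 and LOC_Os03g48180 at -0.0077. Without 1 library, the range was -0.58 to 0.58 for LOC_Os02g55060, -0.80 to 0.73 for LOC_Os03g48180, -0.34 to 0.11 for OsMADS14 (LOC_Os03g54160), -0.32 to 1.03 for LOC_Os04g43760, -0.82 to 4.25 for LOC_Os06g22290 and -0.77 to 1.43 for LOC_Os08g39850. The cause of these differences was not tested.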
